A study of Mus musculus with 70 samples.

Results

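The 37 genes described here are transcribed in response to type I interferon, and they were found in the count tables by their symbols. Each symbol matched a gene line in all 4 tables, which held 55487 gene lines each. The genes were grouped by the role of their products into 3 transcription factors of the response, 4 sensors of foreign RNA or DNA, 12 effectors acting on RNA and translation, 5 effectors at membranes or on particles and nucleotides, 8 ubiquitin-like modifiers, ligases and ADP-ribosylating enzymes, and 5 other induced proteins. B16F10 melanoma, a transplantable line from a C57BL/6 mouse, was grown on both flanks of male and female C57BL/6 mice that had entered the study at 6 to 8 weeks of age. Histotripsy is focused ultrasound that breaks tissue mechanically, without heat. Part of the tumor on the first flank was ablated by it, or sham-treated, which gave control tumors (sham), histotripsy-treated tumors and, on the other flank of the ablated animals, histotripsy-abscopal tumors that were never insonated. Leukocytes (CD45+) and all remaining tumor cells (CD45-) were flow-sorted 3 and 7 days later and profiled by QuantSeq, which reads only the 3′ end of a transcript. The CD45- fraction comprised 4 control, 7 treated and 7 abscopal libraries at day 3, and 11, 3 and 4 at day 7. The CD45+ fraction comprised 4, 6 and 7 libraries at day 3, and 10, 3 and 4 at day 7. The labels named no transgene or deletion, and all tumors came from the same cell line. The paper's legends for CD45- cells at day 3 give fewer mice per group than the 7 treated and 7 abscopal libraries here. Whether each library came from a separate animal was not stated. The p-values therefore measure the spread between libraries.

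Type I interferons, interferon beta and the alpha family, signal through the IFNAR1 and IFNAR2 receptor, the kinases JAK1 and TYK2, and a transcription factor complex that holds STAT2 and IRF9. That complex binds interferon-stimulated response elements in the promoters of its targets, among them IRF7, which in turn amplifies interferon production. In tumors the pathway is known for priming dendritic cells and for raising antigen presentation, and many of its targets also answer to interferon gamma.

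To show what the members share beyond their names, the 300 bases around the transcription start were searched for the core letters of the response element, GAAA and a further GAAA with any 2 bases between, or for the other strand TTTC in the same arrangement. RefSeq promoters (GRCm38.p6) were found for 28 of the 37 members. The core was present in 14 of these 28 genes, against 1079 of 27025 genes in the whole promoter table (3.993%). A match is a string of letters and not a measured binding site. Promoters of 5 members are printed 5′ to 3′ on the strand of the gene, with the core letters in capitals where they occur, overlapping matches run together. Isg15 had 3 matches, the most of any member. Ifit3 and its neighbour Ifit3b are tandem copies. Bst2 was among the members that differed least between the fractions, and Slfn5 among those that differed most.

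Isg15, chr4:156200769-156201068, minus strand: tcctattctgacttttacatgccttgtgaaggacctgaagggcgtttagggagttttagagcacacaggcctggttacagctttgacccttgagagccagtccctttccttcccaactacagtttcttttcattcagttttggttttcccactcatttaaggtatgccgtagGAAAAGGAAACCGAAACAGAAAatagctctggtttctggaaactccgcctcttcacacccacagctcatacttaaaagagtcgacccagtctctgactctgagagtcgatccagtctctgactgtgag
Ifit3, chr19:34583279-34583578, plus strand: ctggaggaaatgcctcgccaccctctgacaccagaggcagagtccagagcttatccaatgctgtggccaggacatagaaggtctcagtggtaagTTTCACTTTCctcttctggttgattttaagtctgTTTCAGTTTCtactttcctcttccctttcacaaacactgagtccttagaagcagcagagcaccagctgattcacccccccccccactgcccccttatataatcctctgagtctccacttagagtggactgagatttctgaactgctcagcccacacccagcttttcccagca
Ifit3b, chr19:34607707-34608006, plus strand: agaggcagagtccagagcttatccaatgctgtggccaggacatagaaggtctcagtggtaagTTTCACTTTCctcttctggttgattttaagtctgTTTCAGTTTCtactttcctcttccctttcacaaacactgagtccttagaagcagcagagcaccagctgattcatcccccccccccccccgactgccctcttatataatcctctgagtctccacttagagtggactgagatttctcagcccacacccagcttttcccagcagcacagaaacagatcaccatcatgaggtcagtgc
Bst2, chr8:71537423-71537722, minus strand: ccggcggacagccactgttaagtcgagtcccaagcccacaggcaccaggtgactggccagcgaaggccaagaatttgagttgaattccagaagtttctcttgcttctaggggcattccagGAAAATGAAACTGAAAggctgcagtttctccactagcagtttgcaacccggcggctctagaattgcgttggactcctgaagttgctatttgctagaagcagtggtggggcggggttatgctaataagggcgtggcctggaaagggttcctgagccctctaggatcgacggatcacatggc
Slfn5, chr11:82951852-82952151, plus strand: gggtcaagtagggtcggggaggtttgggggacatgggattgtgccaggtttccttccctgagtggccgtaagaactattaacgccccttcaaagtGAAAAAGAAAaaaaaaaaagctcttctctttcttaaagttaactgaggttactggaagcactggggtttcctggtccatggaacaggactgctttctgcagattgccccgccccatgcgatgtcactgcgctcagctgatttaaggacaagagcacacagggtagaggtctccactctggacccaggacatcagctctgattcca

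The 70 libraries held 887798 to 3820705 counts each. The sort was checked against marker genes, as the mean of log2(CPM + 1) over each list, where CPM is a count divided by the total of its library and scaled to 1e+06 counts. Ptprc, which encodes CD45, lay between 0 and 1.48 CPM in every CD45- library and between 651 and 1252 CPM in every CD45+ library, and the 6 leukocyte markers together never exceeded 1.69 CPM in CD45- cells. The melanoma markers averaged 10.4 to 10.8 in CD45- libraries and 2.82 to 7.05 in CD45+ libraries. Some libraries stood apart in these markers. Fibroblast markers lay above every control of the same day in CD45- treated replicates 1, 2, 3 and 6 at day 3, in treated replicate 3 at day 7 and in abscopal replicates 1 and 2 at day 7. In CD45+ cells at day 3, abscopal replicates 1 and 4 carried the most melanoma RNA (5.86 and 7.05 on the marker scale, controls 2.86 to 4.15), and treated replicates 2, 3 and 6 the most neutrophil RNA (8.91, 9.88 and 8.51, controls 4.81 to 7.22).

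The first question was in which sorted fraction the interferon-induced genes had the higher level relative to the library total. For most members this was the CD45+ fraction. Cell and RNA yields of the fractions were not used, so the share of a tumor's transcripts held by each fraction is not known. In control tumors at day 7, the comparison with most libraries, all 37 members were higher in CD45+ than in CD45- cells (edgeR quasi-likelihood test, adjusted p under 0.05), against 42.1% of the 12863 genes tested, and the median log2 ratio was 2.41 against 0.05 over all genes. Of the other comparisons of the fractions, 33 members were higher in day 3 control tumors (34.5% of genes), 33 in day 3 treated tumors (39.9%), 33 in day 3 abscopal tumors (39.8%), 36 in day 7 treated tumors (34.3%) and 33 in day 7 abscopal tumors (35.9%). No member was lower in CD45+ cells in any of the 6 comparisons, whereas 30.6%, 37%, 35.3%, 38.3%, 31.3% and 33.7% of all genes were, in day 3 control, treated and abscopal and day 7 control, treated and abscopal tumors. A total of 32 members were higher in all 6. Scaling to library totals rather than by TMM moved the median of all genes to between -0.14 and -0.39, and 30 to 34 members were then higher. Oasl1, Oas1a and Oas3, and Oas2 at day 7, passed the low-count filter only through their CD45+ libraries and had to differ. In sorted bulk samples a lower level can come from fewer expressing cells or from less RNA per cell, and these cannot be told apart.

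**Figure D1:**
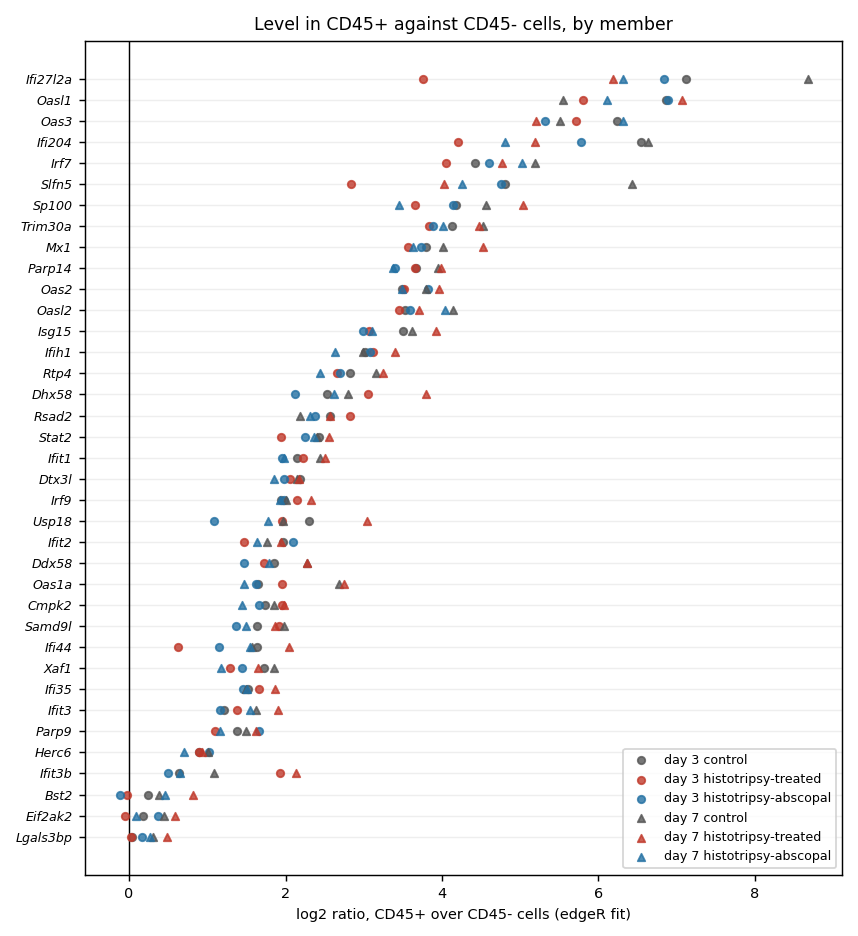
Log2 ratio of the level in CD45+ cells over that in CD45- cells (x axis) for each of the 37 members (y axis, ordered by the median), with circles for day 3, triangles for day 7 and a colour for each tumor group. Bst2, Lgals3bp and Eif2ak2 lie beside the zero line, and Irf7, Slfn5, Ifi204, Oas3, Oasl1 and Ifi27l2a lie farthest to the right.

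Among the transcription factors, Irf7 differed most. In day 7 control tumors Irf7 ranged from 62.2 to 108 CPM in CD45+ libraries (median 76.6, n = 10) and from 0.468 to 5.11 CPM in CD45- libraries (median 2.03, n = 11). The ranges were far apart, and the log2 ratio was 5.18 ± 0.23 (SE, adjusted p = 3.81e-22). Stat2, a subunit of the activating complex, ranged from 59.2 to 94.6 CPM (median 74.7) and from 13.1 to 21.6 CPM (median 17.2), a log2 ratio of 2.41 ± 0.13 (SE, adjusted p = 4.73e-20). Irf9, which gives the complex its DNA contact, had a ratio of 2.01 ± 0.12 (SE). Over the 6 comparisons the Irf7 ratio lay between 4.05 and 5.18.

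The cytoplasmic RNA sensors were higher in CD45+ cells. Ifih1 (MDA5) ranged from 45.2 to 91.9 CPM in CD45+ control libraries at day 7 (median 70.1) and from 3.96 to 16.9 CPM in CD45- libraries (median 9.13), with a log2 ratio of 2.99 ± 0.19 (SE, adjusted p = 1.58e-17). Ddx58 (RIG-I) and Dhx58 (LGP2) had ratios of 2.27 ± 0.19 and 2.80 ± 0.25 (SE). Ifi204, a DNA-binding member of the p200 family, was at 144 to 249 CPM in CD45+ and 0 to 4.82 CPM in CD45- control cells.

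The effectors that act on RNA split widely. The ratio of Eif2ak2 (PKR), the kinase that halts translation on double-stranded RNA, was 0.44 ± 0.13 (SE, adjusted p = 0.00214) in day 7 control tumors and lay between -0.05 and 0.59 over the 6 comparisons. CD45+ and CD45- libraries overlapped for it, at 22.3 to 35.3 and 14.3 to 37.4 CPM. The Ifit genes, whose products bind foreign 5′ ends, came next. Ifit3 ranged from 22.5 to 58.2 CPM (median 36.3) in CD45+ and from 1.4 to 33.6 CPM (median 12.7) in CD45- control libraries at day 7, which overlapped, with a ratio of 1.63 ± 0.31 (SE, adjusted p = 1.09e-05). Ifit1 and Ifit2 had ratios of 2.44 ± 0.27 and 1.76 ± 0.23 (SE). Ifit3b had a ratio of 1.09 ± 0.30 (SE) and was higher in 3 of the 6 comparisons. Of the 50-base stretches in the last 500 bases of Ifit3 transcripts, 14.9% recur in another gene, so reads could be split between the tandem copies. The oligoadenylate synthetase family, which activates RNase L or senses RNA, had higher levels in CD45+ cells. At day 7 all of its members except Oasl2 had to differ because of the filter on low counts, as given above. Oasl2 ranged from 52.3 to 103 CPM (median 65.6) in CD45+ and from 0 to 9.9 CPM (median 5.01) in CD45- control libraries at day 7, with a ratio of 4.14 ± 0.29 (SE, adjusted p = 3.73e-16). Oas3 and Oasl1 summed to 15 and 17 counts over all 11 CD45- control libraries at day 7. Oas1a is uncertain, because 56.1% of such stretches at its 3′ end recur elsewhere. Slfn5, a Schlafen protein that restrains viral transcription, was at 116 to 176 CPM in CD45+ and 0.42 to 5.75 CPM in CD45- control libraries, a ratio of 6.43 ± 0.39 (SE).

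At membranes, tetherin (Bst2) was expressed at similar levels by both fractions and viperin (Rsad2) was higher in CD45+ cells. Bst2, which holds budding virions on the cell surface, ranged from 184 to 469 CPM (median 268) in CD45+ and from 140 to 384 CPM (median 200.1) in CD45- control libraries at day 7. The groups overlapped and the ratio was 0.38 ± 0.17 (SE, adjusted p = 0.0467). Bst2 was higher in CD45+ cells in 2 of the 6 comparisons and its ratio lay between -0.12 and 0.82. Rsad2, a radical SAM enzyme, ranged from 283 to 547 CPM (median 374) and from 52.9 to 163 CPM (median 102), so that its ratio was 2.18 ± 0.20 (SE, adjusted p = 1.34e-12). A QuantSeq count stands for a transcript end, so CPM values of different genes are not scaled by length. Mx1, a dynamin-like GTPase, was at 0.468 to 5.11 CPM in CD45- control cells and had a ratio of 4.02 ± 0.18 (SE).

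Isg15 encodes a ubiquitin-like modifier that is attached to newly made proteins. In day 7 control tumors it ranged from 163 to 436 CPM (median 348) in CD45+ and from 9.13 to 69.5 CPM (median 29.2) in CD45- libraries, a log2 ratio of 3.62 ± 0.28 (SE, adjusted p = 9.01e-15). Usp18, the protease that removes ISG15 and damps IFNAR signaling, ranged from 11.9 to 24.8 CPM (median 16.2) and from 1.4 to 8.73 CPM (median 5.39), a ratio of 1.97 ± 0.24 (SE, adjusted p = 2.52e-09). Herc6, the mouse ligase for ISG15, had a ratio of only 1.02 ± 0.18 (SE), although 24.5% of the stretches at its 3′ end recur in a second gene model. Sp100, a nuclear body component, and Trim30a, a ligase, had ratios of 4.56 ± 0.22 and 4.52 ± 0.23 (SE). Parp9 and Dtx3l, whose products form a complex and whose exons overlap on opposite strands, had ratios of 1.49 ± 0.15 and 2.15 ± 0.14 (SE). The strand setting of the counting was not stated. This also bears on Irf7 and Slfn5, among other members, whose exons overlap Phrf1 and Slfn5os on the opposite strand. Exons of Irf9 overlap those of Rnf31 on the same strand.

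Of the other induced proteins, Ifi27l2a had the largest ratio of all members, 8.68 ± 0.36 (SE, adjusted p = 1.95e-23) in day 7 control tumors. It ranged from 153 to 243 CPM (median 190.1) in CD45+ libraries, and its 11 CD45- libraries summed to 13 counts, at 0 to 3 CPM. In day 3 treated tumors the Ifi27l2a ratio was 3.76 ± 0.53 (SE). At the other end Lgals3bp, a secreted galectin ligand, was at 84.1 to 138 CPM in CD45+ and 83 to 146 CPM in CD45- control libraries at day 7, had a ratio of 0.31 ± 0.12 (SE, adjusted p = 0.0176), and was higher in 1 of the 6 comparisons. Scaled to library totals, its ratio was -0.14, -0.35 and -0.10 in day 3 control, treated and abscopal tumors, so no direction can be given for it there. Ifi35, Xaf1 and Ifi44 had ratios of 1.49 ± 0.17, 1.85 ± 0.29 and 1.58 ± 0.35 (SE).

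**Figure D2:**
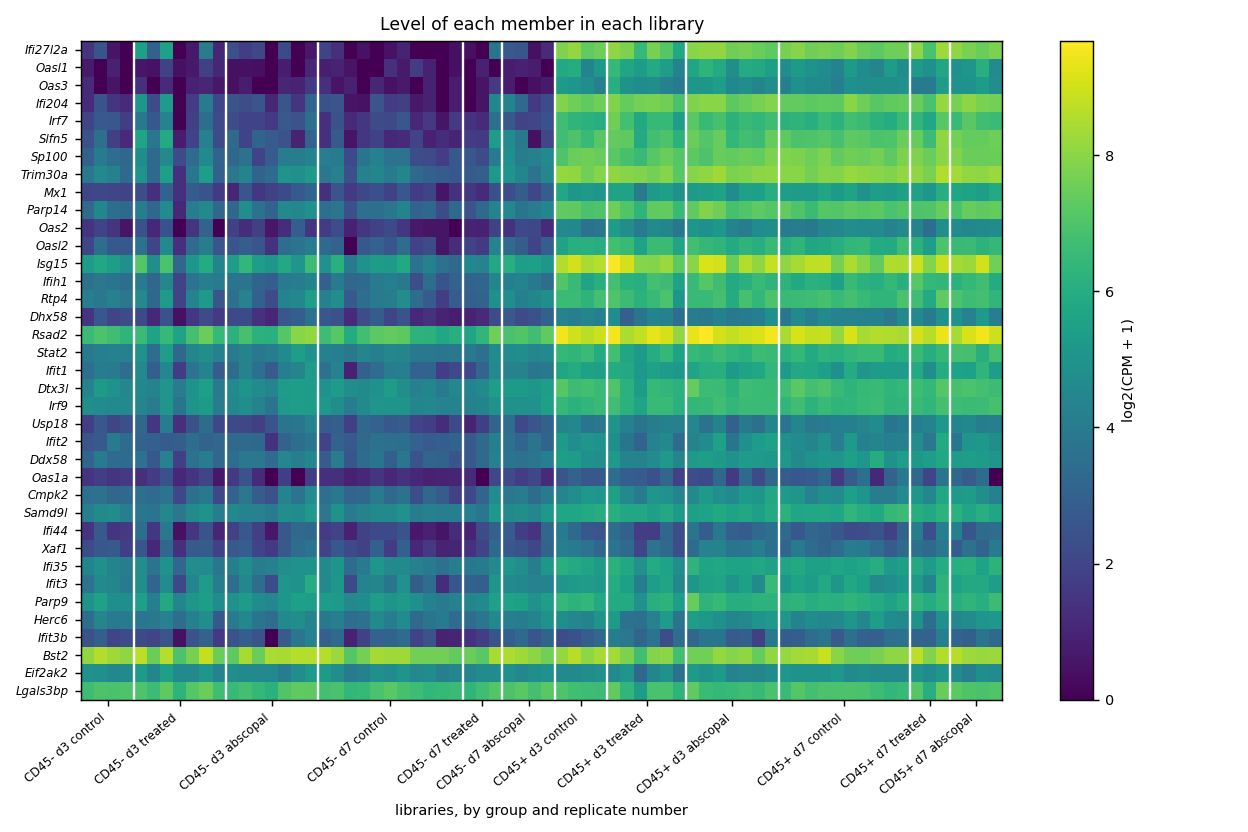
Level of each member (rows, ordered as in the plot of the fraction ratios) in each of the 70 libraries (columns, by group and replicate), as log2(CPM + 1) on the colour scale. CD45+ libraries are brighter in nearly every row, and columns within a CD45- group differ from each other along most rows.

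In CD45- cells at day 3, libraries of the same group differed more than the group means did. The mean of log2(CPM + 1) over the 37 members was 3.42 ± 0.27 (SD, n = 4) in control, 3.53 ± 0.85 (SD, n = 7) in treated and 3.61 ± 0.55 (SD, n = 7) in abscopal libraries at day 3. The 7 treated libraries lay, from replicate 1 to 7, at 4.16, 3.06, 4.52, 2.18, 3.51, 4.31 and 2.99, and the controls at 3.28, 3.8, 3.44 and 3.17. Thus 3 of the treated libraries were above every control and 3 were below every control. Treated replicate 3 was the highest of its group in 21 of the 37 members, and replicate 4 was the lowest in 28. At day 7 the score was 3.16 ± 0.53 (SD, n = 11) in control, 3.8 ± 0.25 (SD, n = 4) in abscopal and 3.26 ± 0.86 (SD, n = 3) in treated libraries. The 4 abscopal libraries lay, from replicate 1 to 4, at 4.073, 3.825, 3.476 and 3.832, and the highest control at 3.809. Thus 3 lay above all 11 controls, replicates 2 and 4 only narrowly, and 0 below them. Of the 3 treated libraries, replicate 3 (4.25) was highest in 36 members, and replicates 1 and 2 (2.66 and 2.87) lay inside the control range of 2.37 to 3.81. In CD45+ cells the libraries were closer together. The score was 5.82 ± 0.14 (SD, n = 4), 5.63 ± 0.48 (SD, n = 6) and 5.91 ± 0.23 (SD, n = 7) in control, treated and abscopal libraries at day 3, and 5.77 ± 0.13 (SD, n = 10), 5.94 ± 0.50 (SD, n = 3) and 5.97 ± 0.10 (SD, n = 4) at day 7.

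**Figure D3:**
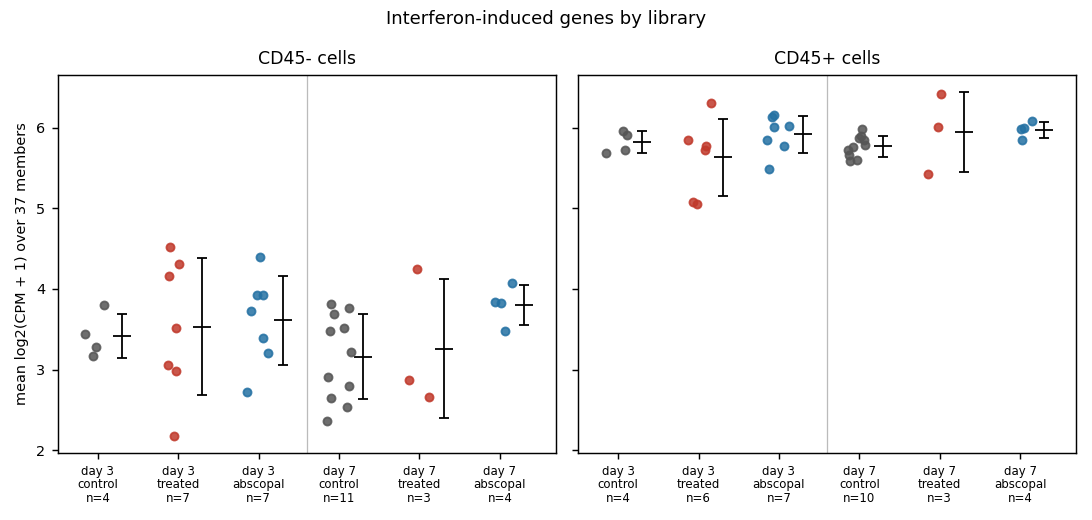
Mean log2(CPM + 1) over the 37 members in each library (points) of each group (x axis), with black bars for the group mean and its SD. CD45+ libraries lie between 5.06 and 6.41, all above the CD45- libraries at 2.18 to 4.52, and the day 3 treated CD45- libraries span the whole CD45- range.

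The second question was whether these genes changed in ablated or contralateral tumors. No member passed an adjusted p of 0.05 in any of the 12 treatment comparisons by edgeR, and the smallest adjusted p was 0.0787. DESeq2 called no member in 11 of them and called Oasl2 in CD45+ cells of day 3 treated against control tumors.

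In CD45- cells at day 3, treated against control tumors gave 0 calls among the 34 members tested (background 0.0916% of 10921 genes), 3 members with an unadjusted p under 0.05 (10.6% of genes) and a median log2 fold change of 0.15 against 0.01 over all genes. The leading members were Ifi204, Ifi27l2a and Slfn5. Ifi204 was at 33.6, 3.8, 39.2, 0, 2.29, 15.1 and 3.24 CPM in treated replicates 1 to 7, and at 1.23, 4.7, 1.72 and 1.25 CPM in the controls. Its log2 fold change was 2.60 ± 0.94 (SE, 95% interval 0.66 to 4.55, adjusted p = 0.307). Ifi27l2a was at 43.5, 6.84, 45.6, 0, 0.572, 15.6 and 1.08 CPM in treated libraries and at 1.85, 4.7, 0.431 and 0 CPM in controls, a log2 fold change of 3.23 ± 1.19 (SE, adjusted p = 0.323). Slfn5 was at 49.9, 12.9, 59.9, 0.732, 2.86, 17.7 and 3.78 CPM against 4.32, 10.8, 2.59 and 1.25 CPM, a log2 fold change of 2.17 ± 0.86 (SE, adjusted p = 0.362). In all 3 genes the high values were those of replicates 1, 3 and 6. The remaining treated libraries overlapped the controls or lay just above them, except that replicate 4 lay below every control for Ifi204 and Slfn5. Isg15 followed the same libraries, with 141, 121 and 61.8 CPM in replicates 1, 3 and 6 and 26.2, 8.05, 33.2 and 18.9 CPM in the others, against 27.9 to 55.4 CPM in controls, a log2 fold change of 0.52 with a 95% interval of -0.61 to 1.65.

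Replicates 1, 3 and 6 also had the highest fibroblast marker scores of these libraries. The 6 fibroblast markers, collagens and stromal genes, summed to 56.3 to 13338 CPM in treated and 17.1 to 1047 CPM in control libraries, and none was at 0 throughout a group. With the fibroblast score as a covariate, the log2 fold change of Ifi204 was -0.17 and that of Ifi27l2a -0.28, and the median over the members was -0.49. Without replicates 1, 2, 3 and 6 the median was -0.41. Neither fit called a member. Leukocyte markers were at or near 0 in the same libraries, at a summed 0 to 1.48 CPM. In replicates 1, 3 and 6 the monocyte and macrophage score was 0.59, 0.55 and 0.61 (controls 0.22 to 0.32). There the neutrophil score was 0.67, 0.83 and 0.32 (controls 0 to 0.33). The endothelial score was 2.39, 2.89 and 1.04 (controls 0.42 to 2.75). The part of stromal cells in the values was not tested otherwise, and that of these other cells was not tested.

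Abscopal against control CD45- cells at day 3 gave 0 calls (background 0%), no member with an unadjusted p under 0.05 (5.19% of genes) and a median log2 fold change of 0.39. Of the 34 members tested, 31 had a positive estimate, against 50.1% of all genes. Members largely moved together within a library: abscopal replicate 7 was highest of its group in 24 of 37 members and replicate 4 lowest in 27. Counts of positive estimates, here and in later comparisons, are therefore not counts of independent observations. Usp18 was nearest to the threshold, at 8.34 ± 6.4 and 3.7 ± 1.2 CPM (SD) in abscopal and control libraries, a log2 fold change of 1.14 ± 0.64 (SE, adjusted p = 1). Treated against abscopal gave 0 calls (background 0.147%), 5 members with an unadjusted p under 0.05 (13.5%) and a median of -0.08. The 3 of these that were higher were again Ifi27l2a (2.85 ± 0.88, SE, adjusted p = 0.146), Slfn5 and Ifi204, and the 2 lower were Dhx58 and Ifit3b. The estimates of treated and of abscopal tumors against control used the same controls and are therefore not independent. Abscopal tumors were the other flank of ablated animals, so treated and abscopal libraries can come from the same animals. Which of them do was not stated, and they were compared unpaired.

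At day 7, abscopal against control CD45- cells gave the most uniform pattern of the 12 comparisons. All 33 members tested had a positive log2 fold change, against 48.6% of all genes, with a median of 0.54 against -0.01, yet none was called (background 0.291%) and 9 had an unadjusted p under 0.05 (9.56%). Because members move together within a library, these signs from 4 abscopal libraries are not independent. Slfn5 was at 24.4, 13.9, 0.356 and 3.17 CPM in the 4 abscopal libraries and between 0.42 and 5.75 CPM (median 1.4) in the 11 controls, a log2 fold change of 2.51 ± 0.70 (SE, adjusted p = 0.136). Ifi204 was at 19.8, 8.82, 2.13 and 3.81 CPM against 0 to 4.82 CPM (median 0.834), a log2 fold change of 2.16 ± 0.74 (SE, adjusted p = 0.276). For both, replicates 1 and 2 were above every control and the other 2 libraries were not. Sp100 averaged 21 ± 5.8 and 9.58 ± 5.9 CPM (SD), a log2 fold change of 1.10 ± 0.39 (SE, adjusted p = 0.294), and Stat2 23.7 ± 2 and 16.7 ± 3.1 CPM (SD), a log2 fold change of 0.47 ± 0.17 (SE, adjusted p = 0.318). Without abscopal replicate 3, Slfn5 was called (log2 fold change 2.94, adjusted p = 0.0179). The fibroblast markers summed to 70.1 to 2478 CPM in abscopal and 16.9 to 694 CPM in control libraries. With their score as a covariate the member median was -0.02 and 15 of 33 estimates were positive, and without replicates 1 and 2 the median was 0.37. The 5 endothelial markers averaged 4.01 in replicate 1 and at most 1.94 in the controls, and summed to 2.85 to 112 CPM in abscopal and 2.1 to 19.3 CPM in control libraries, with none at 0 in all libraries of a group. Their part in the member values was not tested.

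Treated against control CD45- cells at day 7 rested on 3 libraries and gave 0 calls (background 0%), 2 members with an unadjusted p under 0.05 (6.08%) and a median of 0.07. Slfn5 was at 2.27, 2.1 and 38.4 CPM, a log2 fold change of 2.83 ± 0.76 (SE, adjusted p = 0.315), and Ifi27l2a at 0.325, 0 and 12.6 CPM, a log2 fold change of 2.82 ± 0.97 (SE, adjusted p = 0.604). Both values came from replicate 3, in which the fibroblast score was 8.07 against 4.11 and 3.32 in the other 2. Without it the log2 fold change of Ifi27l2a was -1.20 and the member median -0.52. Treated against abscopal gave 0 calls (background 0%), 3 members with an unadjusted p under 0.05 (6.74%) and a median of -0.42. Sp100, Dhx58 and Ifit3b were lower in every treated than in every abscopal library, as were 5.51% of all genes. Sp100 had a log2 fold change of -1.40 ± 0.56 (SE, adjusted p = 0.692).

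**Figure D4:**
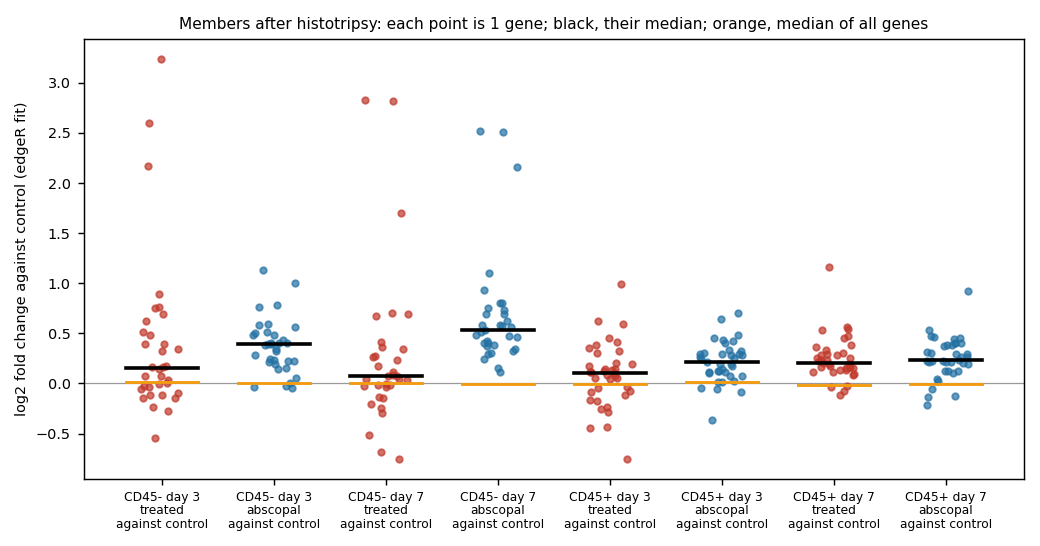
Log2 fold change against control (y axis) of each member tested (points) in the 8 comparisons with control tumors (x axis), with a black bar at the median of the members and an orange bar at the median of all genes. The black bar lies highest, at 0.54, in day 7 abscopal CD45- cells, and CD45- estimates spread more than CD45+ estimates.

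In CD45+ cells at day 3, where treatment changed many other genes, the members stayed below the threshold. Treated against control tumors gave 0 calls among 37 members (background 7.79%), 4 members with an unadjusted p under 0.05 (23.9%) and a median log2 fold change of 0.10 against -0.01. Scaled to library totals, the median was -0.11 and that of all genes -0.22. Oasl2 averaged 82 ± 26 CPM (SD, n = 6) in treated and 62.3 ± 10.4 CPM (SD, n = 4) in control libraries, a log2 fold change of 0.59 ± 0.20 (SE, adjusted p = 0.0787). It was called without treated replicate 6 (adjusted p = 0.0343). Ifit3b had 0.99 ± 0.42 (SE, adjusted p = 0.152). Ifit2 averaged 16.3 ± 7.8 CPM in treated, 31.4 ± 4.8 CPM in control and 31 ± 13 CPM in abscopal libraries (SD), log2 fold changes of -0.75 ± 0.32 against control and -0.83 ± 0.28 against abscopal tumors (SE, adjusted p = 0.158 and 0.0986). The second of these passed without abscopal replicate 4 (-0.97, adjusted p = 0.0326), which carried the most melanoma RNA.

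Treated replicates 3 and 6 had the lowest member scores of the CD45+ fraction, 5.08 and 5.06, and were lowest of their group in 20 and 15 members. Replicate 1 had 6.30 and was highest in 31. Replicate 2, with a neutrophil score of 8.91, had a member score of 5.72, inside the control range of 5.68 to 5.96. The 7 neutrophil markers summed to 1602 to 27438 CPM in treated and 521 to 2915 CPM in control libraries, with none at 0, and 6 of the 7 were higher in treated tumors. With the neutrophil score as a covariate the member median was 0.26 and no member was called. The plasmacytoid dendritic cell markers, from cells known for producing interferon alpha, averaged 3.01 to 4.03 in treated, 3.53 to 4.52 in abscopal and 4.66 to 4.95 in control libraries, and 4 of the 7 were lower in treated tumors, as were 4 of 8 T cell markers. The part of cell content in the member values was not tested otherwise.

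**Figure D5:**
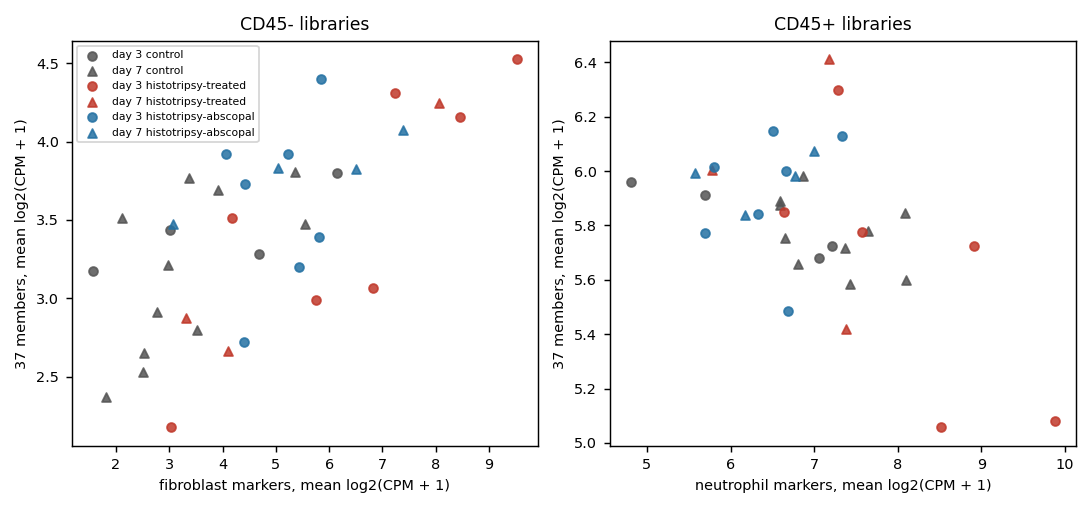
Mean log2(CPM + 1) over the members (y axes) beside that over fibroblast markers in CD45- libraries (left) and over neutrophil markers in CD45+ libraries (right), with circles for day 3, triangles for day 7 and a colour for each tumor group. The 3 CD45- treated libraries with the highest member scores at day 3 lie at fibroblast scores of 7.24 to 9.52, and the 2 CD45+ treated libraries with the lowest member scores at neutrophil scores of 8.51 and 9.88. CD45+ treated replicate 2 at day 3 lies at a neutrophil score of 8.91 with a member score of 5.72.

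Abscopal against control CD45+ cells at day 3 gave 0 calls (background 0%), 2 members with an unadjusted p under 0.05 (7.76%) and a median of 0.21, with 33 of 37 estimates positive (51.9% of genes). Oas2 (0.70 ± 0.29, SE) and Oasl2 (0.48 ± 0.20, SE) led, both with an adjusted p of 0.579. Treated against abscopal gave 0 calls (background 5.44%), 4 members with an unadjusted p under 0.05 (18.7%), all of them lower, and a median of -0.11. At day 7 treated against control gave 0 calls (background 0%), 3 members with an unadjusted p under 0.05 (3.15%) and a median of 0.20, led by Ifi44 (12.2 ± 7 and 5.74 ± 2.2 CPM (SD), log2 fold change 1.16 ± 0.33 (SE), adjusted p = 1) and Ifih1 (0.55 ± 0.19, SE). Of the 3 treated libraries replicate 3 was highest in 32 members and replicate 2 lowest in 32. Abscopal against control gave 0 calls (background 0%), 9 members with an unadjusted p under 0.05 (7.45%), all of them higher, and a median of 0.23 with 33 of 37 positive estimates (48.5% of genes). Ifi35 (0.45 ± 0.15, SE) and Stat2 (0.47 ± 0.16, SE) led, both with an adjusted p of 0.542. The 9 monocyte and macrophage markers averaged 7.62 to 8.07 in the abscopal and 6.84 to 7.58 in the control libraries, so that these did not overlap. They summed to 2225 to 3397 CPM and 1654 to 2445 CPM, with none at 0, and their part in the member values was not tested. Slfn5, Ifi204 and Stat2 were past an unadjusted p of 0.05 in the abscopal tumors of both fractions at day 7. The share of all genes past it in both was not counted, so nothing is read from this overlap. Treated against abscopal gave 0 calls (background 0%), no member with an unadjusted p under 0.05 (2.69%) and a median of -0.04.

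Whether an effect differed between the fractions or between the days was tested directly in 8 contrasts, in which no member was called by edgeR or by DESeq2. Between the fractions at day 3, 0 members differed in the effect of treatment (background 1.92%) and 3 had an unadjusted p under 0.05 (16.1%). For Ifi27l2a the effect in CD45+ minus that in CD45- cells was -3.36 ± 1.14 (SE, 95% interval -5.68 to -1.04, adjusted p = 0.12) on the log2 scale, followed by Ifi204 at -2.34 ± 0.89 (SE, adjusted p = 0.172). For the abscopal effect at day 3, 0 members were called (background 0%) and none had an unadjusted p under 0.05 (5.74%), with Usp18 at -1.21 ± 0.70 and Ddx58 at -0.38 ± 0.40 (SE). At day 7 the treated effect gave 0 (background 0%) and 2 members (4.84%), Slfn5 at -2.39 ± 0.75 and Ifi27l2a at -2.49 ± 0.88 (SE), and the abscopal effect 0 (background 0.0233%) and 4 (8.94%), led by Slfn5 at -2.17 ± 0.69 and Ifi27l2a at -2.36 ± 0.81 (SE). Without CD45- abscopal replicate 3 the Slfn5 difference was called (-2.61, adjusted p = 0.0322). Without CD45- treated replicate 3 the day 7 treated differences were 0.07 for Slfn5 and 1.37 for Ifi27l2a. Between the days, 0 members were called for CD45- treated tumors (background 0%), CD45- abscopal tumors (0.00866%), CD45+ treated tumors (2.68%) and CD45+ abscopal tumors (0%), and 0, 0, 3 and 1 had an unadjusted p under 0.05 (6.02%, 6.87%, 15.8% and 6.48%). In CD45+ treated tumors Ifit2 and Ifi44 had the smallest p, with day 7 minus day 3 differences of 1.33 ± 0.48 and 1.45 ± 0.53 (SE, adjusted p = 0.13 and 0.144). In the other 3 the members nearest to the threshold were Ifit2 (0.66 ± 0.45) and Usp18 (-1.27 ± 0.89) in CD45- treated, Slfn5 (2.19 ± 1.26) and Sp100 (0.95 ± 0.67) in CD45- abscopal, and Bst2 (0.65 ± 0.30) and Dhx58 (0.51 ± 0.33) in CD45+ abscopal tumors (SE).

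The genes upstream of the members were measured as well. Type I and type III interferon transcripts were rare. Ifnb1, which encodes interferon beta, had 80 counts over the 34 CD45+ libraries, at most 7 in any of them, and 0 of 87525003 counts in the 36 CD45- libraries, which allows up to 0.0343 CPM. All other type I and type III interferon genes listed gave at most 17 counts in a fraction (Ifnk in CD45+ cells), so that differences between tumor groups were not detectable at this depth. Ifng, interferon gamma, was at 146 ± 24.8, 97.5 ± 50.5 and 129 ± 27.3 CPM (SD) in CD45+ control, treated and abscopal libraries at day 3 and had 2 counts in all CD45- libraries. The receptor genes were higher in CD45+ cells, with Ifnar1 at 42.8 ± 9.6 and 10.7 ± 2 CPM (SD) in the 10 CD45+ and 11 CD45- control libraries of day 7. Ifnar2 was at 106 ± 15.1 and 31.9 ± 3.9 CPM (SD). All 5 receptor genes tested were higher in CD45+ cells in that comparison, as were 42.1% of all genes, all 5 interferon regulatory factors and all 6 inhibitors outside the members, and 9 of 11 other sensors and adaptors. Sting1 was at 120.3 ± 16.9 against 34.1 ± 7.6 CPM (SD) and Cgas, the DNA sensor upstream of it, at 23 ± 5.7 against 18.8 ± 3.8 CPM (SD).

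In the treatment comparisons 2 lists of pathway genes held a call, receptors and sensors with their adaptors, both in CD45+ treated tumors at day 3, in which Il10rb, shared by the receptors of interferon lambda and interleukin 10, and Ikbke, a kinase that activates IRF3, were higher (background 7.79% of genes against control and 5.44% against abscopal tumors, either direction). Il10rb was at 240.5 and 125 CPM in treated and control libraries, a log2 fold change of 1.20 ± 0.23 (SE, adjusted p = 0.00399), and Ikbke at 39.3 and 20.6 CPM, a log2 fold change of 1.17 ± 0.21 (SE, adjusted p = 0.00251). Both were also higher against abscopal tumors (1.09 ± 0.19 and 0.77 ± 0.17, SE, adjusted p = 0.0018 and 0.0102). Of 37 other interferon-induced genes tested outside the members, 1 was called there, Ifitm1 (0.97 ± 0.25, SE, adjusted p = 0.021), which was also higher against abscopal tumors (0.87 ± 0.21, SE). Neutrophil markers were also higher in these treated libraries. The part of cell content in the calls of Il10rb, Ikbke and Ifitm1 was not tested. No interferon regulatory factor or inhibitor on the lists was called in any treatment comparison. Among 14 genes that lean to interferon gamma, 1 was called in 1 comparison, Cxcl9 in CD45- abscopal cells at day 7, at 37.2 ± 48.4 against 3.42 ± 3.4 CPM (SD) in control cells (log2 fold change 3.51 ± 0.69, SE, adjusted p = 0.0282, background 0.291% of genes). The median over the 11 of them tested there was 0.85, beside 0.54 for the members. In the day 3 treated CD45- libraries the score of these genes was 0.98 in replicate 4, which had the lowest member score of its group, and 4.30 in replicate 3, which had the highest.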

How the data were processed

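Tumor cells were sorted into CD45- and CD45+ fractions and profiled as QuantSeq 3′ libraries with unique molecular identifiers. The submitters' processing notes named bcl2fastq, Trim Galore 0.5.0, STAR 2.6.0, featureCounts and GRCm38, and the strand setting of the counting is not given in the sources used here. The authors deposited 4 tables of raw gene counts, which were used as deposited, and no column of the authors' own comparisons was used. A line without a gene name in the CD45+ tables was dropped.

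Groups came from the sample labels. Counts were tested with edgeR 4.0.16 (quasi-likelihood test, TMM factors, filterByExpr with a minimum count of 10 and a minimum total of 15) and p-values were adjusted by Benjamini-Hochberg over all genes of a fit, with a threshold of 0.05. Each table was fitted alone for the treatment comparisons, tables of a day together for the fractions, and tables of a fraction together for the days. DESeq2 1.42.0 was the other tool. Levels are CPM of the library total, and scores are the mean of log2(CPM + 1). Scripts were tested on simulated data. The alternatives were DESeq2, library totals, no filter, a replicate block, marker covariates and leaving out libraries. The covariates and the exclusions by markers were chosen after seeing the data. The members and gene lists were chosen with earlier results of these data known. Any member could be named. The rule fixed Isg15, Irf7, Stat2, Ifit3, Oasl2, Rsad2, Usp18, Ifih1, Bst2 and Ifi27l2a, the members with the smallest p in each comparison, those with the highest and lowest ratio between the fractions, and at most 3 pathway genes per list and comparison by smallest p. Same-numbered replicates could not be shown to be paired, and other pairings were not tried. The labels do not say which CD45+ and CD45- libraries came from one tumor, so the main fits compared the fractions unpaired.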

Additional observations from a re-analysis of the deposited data

Results flagged for a closer look

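In 99 sets of a group and a measure, 5 held a library whose gap to its nearest neighbour exceeded Dixon's 95% critical value, and chance alone gives about 5% of sets. Irf7 was at 10.7 CPM in CD45- day 3 abscopal replicate 7, where the next library was at 5.57 CPM. Stat2 was at 67.5 CPM in CD45+ day 7 abscopal replicate 3, below the next at 113 CPM. Ifit3 was at 93.0 CPM in CD45+ day 3 abscopal replicate 7, above the next at 49.8 CPM. Usp18 was at 31.2 CPM in CD45+ day 3 treated replicate 1, above the next at 18.2 CPM. Bst2 was at 404 CPM in CD45+ day 7 abscopal replicate 1, above the next at 304 CPM.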

How the results depend on the processing

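The counts of members higher in CD45+ cells stayed within 1.5 times under every alternative run. The count of 0 in the treatment comparisons and differences of effect moved in some. With no filter on low counts it was 3 for CD45- day 3 treated against control and against abscopal tumors, 2 for day 7 treated and 4 for day 7 abscopal against control, 1 and 2 for CD45+ day 3 treated against control and abscopal, 3, 2 and 4 for the fraction differences of day 3 treated, day 7 treated and day 7 abscopal tumors, and 1 for the CD45+ treated day difference. DESeq2 gave 1 and the replicate block 3 for CD45+ day 3 treated against control. No pairing was established, and the block moved no other count. Leaving out 1 library gave 0 to 1 calls in CD45- day 7 abscopal against control, CD45+ day 3 treated against control and against abscopal, and the day 7 abscopal fraction difference.

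Some values turned sign, among them values of Ifi204, Ifi27l2a and Slfn5, which no filter on low counts had called. With the fibroblast covariate, Ifi204 was -0.17 and Ifi27l2a -0.28 in CD45- day 3 treated against control, Slfn5 -0.25 and Ifi27l2a -0.0836 against abscopal, Ifi27l2a -0.52 in day 7 treated, and Ifi204 -0.36 and Slfn5 -0.0763 in day 7 abscopal against control. Without fibroblast-high libraries, Ifi204 was -0.38 against control and Slfn5 -1.32 against abscopal tumors at day 3. Library totals gave fraction ratios of -0.0019 for Eif2ak2 and -0.14 for Lgals3bp (day 3 control), -0.35 and -0.10 for Lgals3bp (day 3 treated, abscopal) and -0.17 for Eif2ak2 (day 7 abscopal). No filter gave -0.0742 for Lgals3bp (day 3 treated) and -0.025 for Eif2ak2 (day 7 abscopal), and the replicate block -0.0137 for Lgals3bp (day 3 treated). Leaving out 1 library gave -1.20 to 3.45 for Ifi27l2a in CD45- day 7 treated against control, -2.96 to 0.0697 for Slfn5 and -3.15 to 1.37 for Ifi27l2a in the day 7 treated fraction difference, -0.0338 to 0.0956 for Lgals3bp (day 3 control), -0.11 to 0.17 for Lgals3bp, -0.24 to 0.10 for Eif2ak2 and -0.16 to 0.13 for Bst2 (day 3 treated), and -0.0033 to 0.20 for Eif2ak2 (day 7 abscopal). The causes were not tested. Depth limited members with few counts in CD45- cells, where 3 of 87525003 pooled counts correspond to 0.0343 CPM.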
